A study of Capra hircus with 9 samples.

Results

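The let-7 family with miR-98 was described in the submandibular gland of goats at 3 ages. The members were all entries of the deposited miRNA table whose name holds let-7, whatever the letter, arm or ending, and all entries that carry the number of miR-98. This gave 23 of 2189 entries. Of these, 18 carry goat names (prefix chi-), 9 for each arm of the hairpin, and 5 carry names without a goat prefix (let-7-x, let-7-y, let-7-z, miR-98-x and miR-98-y). All 23 passed the filter on low counts, which left 937 entries in all.

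Small RNA was sequenced from 9 healthy female Lubo goats aged 1, 12 or 24 months, with 3 animals of each age, all kept under shared conditions with free access to food and natural light, with no other treatment and no genetic change. Each library came from a different animal, and its number in the labels names it here: the 1-month libraries are 1, 2 and 3, the 12-month libraries 3, 4 and 5, and the 24-month libraries 2, 3 and 5. Whole gland tissue was used, so in every value below fewer cells of a type and less RNA per cell cannot be told apart. The comparison of the 3 ages asks how the miRNAs of a major salivary gland differ with age.

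let-7 is among the oldest known miRNAs, found first in the worm Caenorhabditis elegans, where it times the passage from larval to adult cell fates. In mammals the family is low in stem cells, where LIN28 proteins block the maturation of its precursors, and it accumulates as tissues differentiate and restrains growth genes such as HMGA2, MYC and RAS. The mature strand from the 5p arm is usually the one loaded into Argonaute, and the 3p strand is mostly discarded.

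The 5p members are shown first because they share a seed (bases 2 to 8, in capitals), the part of a miRNA that pairs with its targets, and differ only outside it, or at base 1 in let-7d. Sequences are given 5′ to 3′ as deposited, with T for U.
chi-let-7a-5p: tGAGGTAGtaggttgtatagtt
chi-let-7b-5p: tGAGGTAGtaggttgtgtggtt
chi-let-7c-5p: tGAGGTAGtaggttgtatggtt
chi-let-7d-5p: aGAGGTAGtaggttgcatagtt
chi-let-7e-5p: tGAGGTAGgaggttgtatagtt
chi-let-7f-5p: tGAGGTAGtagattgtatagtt
chi-let-7g-5p: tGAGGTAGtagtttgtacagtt
chi-let-7i-5p: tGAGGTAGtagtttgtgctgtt
chi-miR-98-5p: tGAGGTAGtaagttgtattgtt

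Counted from 1 at the 5′ end of chi-let-7a-5p, chi-let-7f-5p differs from it by G12A, chi-let-7c-5p by A19G and chi-let-7e-5p by T9G. chi-let-7d-5p has T1A and T16C, and chi-let-7i-5p stands farthest, with the 4 substitutions G12T, A17G, T18C and A19T. Of the 36 pairs of 5p members, 4 differ at 1 base and 10 at 2 bases. The number of mismatches allowed in counting was not given in the sources used here, so the split of reads between such near-identical members is uncertain. No member shared its whole sequence with another entry of the table.

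The 3p strands do not share 1 seed. Those the results below turn on are shown with bases 2 to 8 in capitals.
chi-let-7a-3p: cTATACAAtctactgtctttcc
chi-let-7b-3p: cTATACAAcctactgccttcct
chi-let-7d-3p: cTATACGAcctgctgcctttc
chi-let-7i-3p: cTGCGCAAgctactgccttgct

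chi-let-7a-3p and chi-let-7b-3p carry the same 3p seed, which 4 members share (with chi-let-7f-3p and chi-miR-98-3p), while chi-let-7d-3p and chi-let-7i-3p each have a seed of their own within the table.

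Libraries held 8288492 to 13277448 counts. The 1-month library 2 stood apart from the others of its age: entries of a leukocyte list (miR-142 and miR-223 among them, 22 of 22 detected) took 12.7% of its counts, against 3.73% and 5.78% in 1-month libraries 1 and 3, 0.604 to 0.712% at 12 months and 0.477 to 0.617% at 24 months. A gland list (such as miR-375, miR-148 and miR-7, 18 of 18 detected) took 1.41% there, against 8.55% and 6.50% in the others of that age, 14.2 to 16.8% at 12 months and 16.9 to 17.9% at 24 months. These shares are sums, and the entries of the gland list did not all move together. At 12 months against 1 month the log2 fold change in edgeR was 1.92 in chi-miR-148a-3p (adjusted p = 0.0626). It was −1.41 in chi-miR-7-5p (adjusted p = 0.0305). An epithelial list (24 of 24 detected) took 0.875%, against 5.82% and 3.97%, 10.3 to 11.9% and 10.7 to 11.8% in the same order. A neural list (19 of 19 detected) took 3.48%, against 0.723% and 0.419%, 0.0404 to 0.0564% and 0.0290 to 0.0474%. Its entries did not move as 1 group at 12 months against 1 month. In edgeR chi-miR-128-3p (log2 fold change −5.02, adjusted p = 0.00385) and chi-miR-129-5p (−3.33, adjusted p = 0.0138) were lower. chi-miR-9-5p (0.27, adjusted p = 0.648) and chi-miR-219 (0.13, adjusted p = 0.824) were not. A mesenchymal list (20 of 20 detected) took 1.66%, against 10.7% and 13.6%, 6.91 to 9.04% and 6.51 to 6.82%. Its entries lay on both sides of 0 at 12 months against 1 month in edgeR. The log2 fold change was 1.40 in chi-miR-145-3p (adjusted p = 0.0629) and 0.46 in chi-miR-143-3p (adjusted p = 0.595). It was −1.15 in chi-miR-199a-3p (adjusted p = 0.149) and −0.99 in chi-miR-214-3p (adjusted p = 0.210). An endothelial list (4 of 4) took 0.441% in 1-month library 2, against 0.693 to 1.45% in the other 8 libraries. A red cell list (10 of 10) took 0.0735 to 0.403% over all libraries, and a muscle list (17 of 17) 0.0155 to 0.0611%, with 0.247% in 12-month library 4. The gland list was thus detected in every library, and its sum was least in 1-month library 2. The leukocyte, gland, epithelial, neural and mesenchymal lists differed between ages or in 1-month library 2 together with members below, and their part in those results was not tested.

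All 23 members together took 9.41, 7.56 and 8.29% of the counts of 1-month libraries 1, 2 and 3, 7.70, 8.96 and 8.41% of 12-month libraries 3, 4 and 5, and 10.4, 10.5 and 14.7% of 24-month libraries 2, 3 and 5. The family therefore held about the same part of the library at 1 month (8.42 ± 0.936%, SD, n = 3) and 12 months (8.36 ± 0.629%), and all 24-month libraries lay above all others (11.9 ± 2.43%). Goat-named 5p strands made up nearly all of it, with 8.23, 8.12 and 11.5% at 1, 12 and 24 months, against 0.0540, 0.0758 and 0.0714% for the 9 goat-named 3p strands and 0.130, 0.158 and 0.271% for the entries of other names. These shares are unscaled.

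Levels below are TMM-scaled CPM, that is, counts over a library total corrected for composition. Every member is 21 to 24 bases long, so levels of different members were compared without a length correction. How evenly different sequences were captured was not tested. Over the 9 libraries chi-let-7a-5p was the most abundant member, with a mean of 38205 CPM, and chi-let-7f-5p (21998 CPM) and chi-let-7b-5p (17091 CPM) came next. chi-let-7f-5p and chi-let-7b-5p changed places between ages, as their values below show. chi-let-7g-5p (7631 CPM), chi-let-7i-5p (3879), chi-let-7c-5p (2704), chi-let-7d-5p (1428), chi-let-7e-5p (728) and chi-miR-98-5p (481) followed. The ranges of neighbours in this order overlapped over the 9 libraries, except that every library of chi-let-7d-5p (916 CPM or more) lay above every library of chi-let-7e-5p (895 CPM or less).

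**Figure D1:**
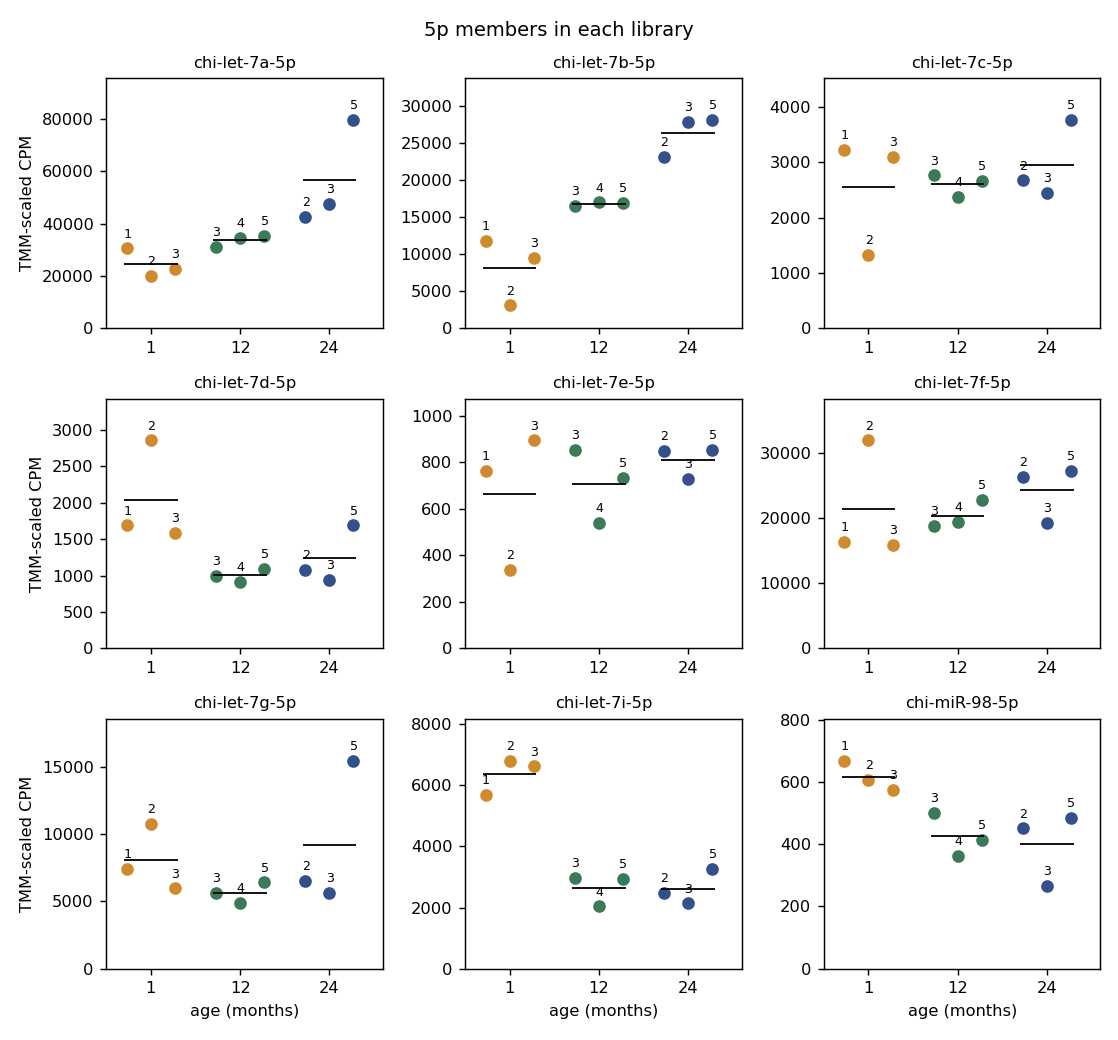
TMM-scaled CPM (y axis, from 0, a scale per panel) of the 9 goat-named 5p members at 1, 12 and 24 months (x axis). Each point is a library, numbered as in the labels, and lines are means of 3 libraries. chi-let-7b-5p lies between 23177 and 28124 CPM at 24 months, above every younger library, while chi-let-7i-5p lies at 5674 CPM or more in each 1-month library and at 3263 CPM or less in every older one.

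Between ages the members moved in both directions. At 24 months against 1 month, both arms of let-7a and both arms of let-7b rose and chi-let-7i-5p and chi-let-7d-3p fell, which is 6 of 23 members called by edgeR's quasi-likelihood test (26.1%, adjusted p under 0.05 over all 937 entries). Over all entries, 26.3% were called in that comparison, 8.75% higher and 17.5% lower, so the count of members called is near that of any entry. The median log2 fold change was 0.22 over the members and −0.06 over all entries. At 12 months against 1 month 2 of 23 were called, chi-let-7b-3p higher and chi-let-7i-5p lower (8.70%, against 19.2% of all entries, 5.98% higher and 13.2% lower), with medians of 0.01 and −0.02. The ages did not overlap for 10 of 23 members in that comparison, against 48.5% of all entries, and for 7 of 23 at 24 months against 1 month, against 47.2%. At 24 months against 12 months edgeR called 0 of 23 members and 0% of all entries. An unadjusted p under 0.05 was reached by 2 of 23 members and by 40 of all 937 entries. DESeq2 and limma voom also called 0 members there. The ages did not overlap for 4 of 23 members, against 9.82% of all entries. For any difference between the 3 ages, 4 of 23 passed (17.4%, against 20.5% of all entries): chi-let-7i-5p, chi-let-7b-3p, chi-let-7a-3p and chi-let-7b-5p.

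The split of these calls depended on scaling. Without TMM, with library size alone, the median of all entries shifted to −0.36 at 24 months against 1 month and to −0.20 at 12 months against 1 month. The members called were then 1 higher and 2 lower, and 1 higher and 2 lower, in place of 4 higher and 2 lower, and 1 and 1. The share of all entries called under that scaling is not given here, so these counts do not set the members apart from other entries. No called member changed direction under any of the 4 scalings run.

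**Figure D2:**
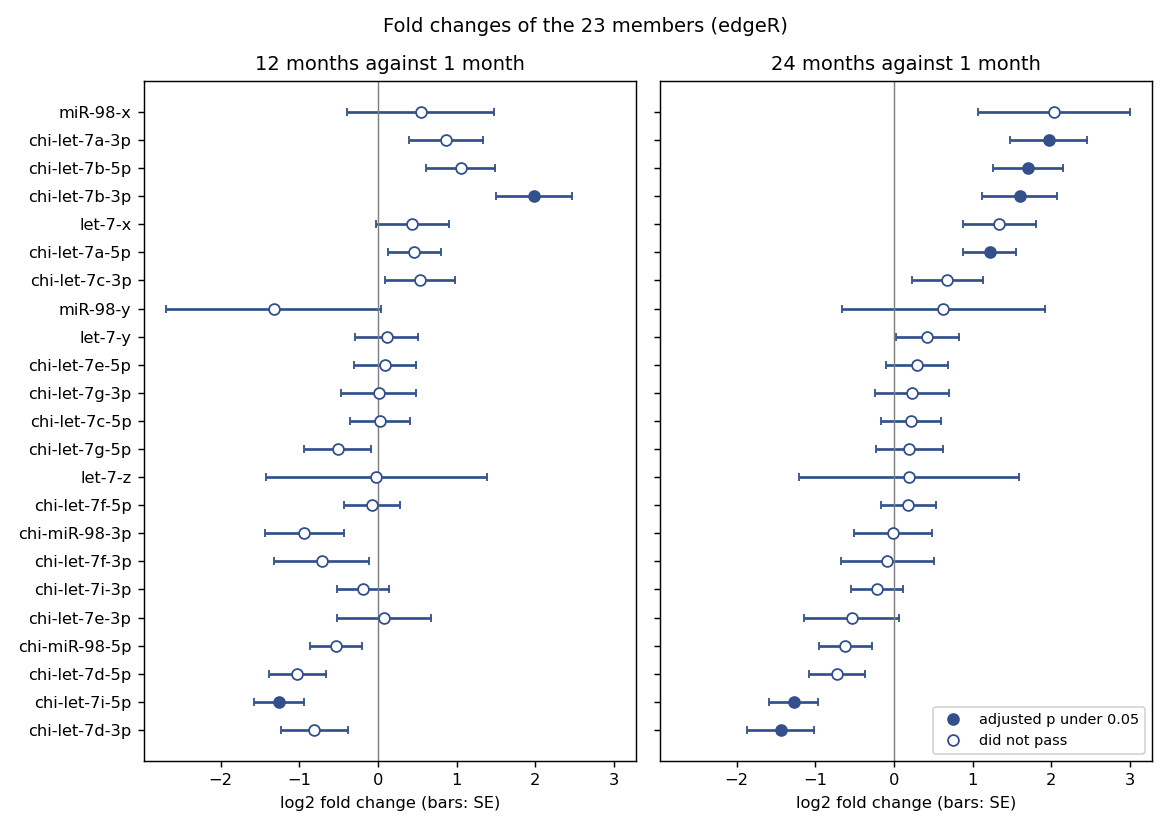
Log2 fold changes (x axis) of the 23 members (y axis, ordered by the right panel) for 12 months against 1 month and 24 months against 1 month, with standard errors of the edgeR fit as bars. Filled points passed an adjusted p of 0.05: 2 in the left panel and 6 in the right one, of which 4 lie above 0 and 2 below.

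let-7b, a member that accumulates in differentiated tissue and restrains HMGA2 in mouse neural stem cells, was highest at the oldest age. chi-let-7b-5p stood at 11741, 3038 and 9486 CPM in 1-month libraries 1, 2 and 3, at 16499, 16988 and 16866 CPM in 12-month libraries 3, 4 and 5, and at 23177, 27897 and 28124 CPM in 24-month libraries 2, 3 and 5. The 3 ages did not overlap, and 1-month library 2 was the lowest by far. The log2 fold change was 1.71 (SE 0.44, adjusted p = 0.0199) at 24 months against 1 month, higher in 3 of 3 goats, and 1.05 (SE 0.44, adjusted p = 0.0951) at 12 months against 1 month. Without 1-month library 2 these were 1.29 and 0.64, and both passed (adjusted p = 0.00137 and 0.0372), while the 24-month call was lost without any single 24-month library or 12-month library 3 or 5 (adjusted p up to 0.104). With library size alone it was 1.38 and did not pass (adjusted p = 0.0614). With only the libraries of both ages fitted it was 1.60 and did not pass either (adjusted p = 0.0687).

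The other strand of that hairpin is chi-let-7b-3p. It stood at 159, 54.2 and 138 CPM at 1 month, at 390, 496 and 504 CPM at 12 months, and at 547, 286 and 229 CPM at 24 months, in the same library order. Every older library lay above every 1-month library, and 24-month libraries 3 and 5 lay below all 12-month ones. The ratio of the strands, given below, did not differ past the threshold between ages (adjusted exact p = 0.354). chi-let-7b-3p rose by 1.99 (log2, SE 0.48, adjusted p = 0.0171) at 12 months and by 1.60 (SE 0.48, adjusted p = 0.0329) at 24 months, each against 1 month. Leaving out 12-month library 3, 4 or 5 or 24-month library 3 or 5 ended the first call (adjusted p up to 0.116). The second was lost without 1-month library 3, 12-month library 3 or 5, or any 24-month library (adjusted p up to 0.205, where its log2 fold change was 0.94). With only the libraries of both ages fitted, neither call passed (1.68, adjusted p = 0.0506, and 1.48, adjusted p = 0.0856). The second was also lost with library size alone (1.30, adjusted p = 0.0885) and without the filter on low counts (1.34, adjusted p = 0.0504). With entries of the same sequence summed it was 1.42 and did not pass (adjusted p = 0.0610).

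let-7a, the member whose mature strand is identical from worm to human, was the most abundant at every age. chi-let-7a-5p stood at 30447, 20030 and 22686 CPM at 1 month, at 31191, 34427 and 35166 CPM at 12 months, and at 42592, 47651 and 79659 CPM at 24 months. The ages did not overlap, and 24-month library 5 lay far above the rest. It rose by 1.22 (log2, SE 0.34, adjusted p = 0.0260) at 24 months against 1 month, while 12 months against 1 month gave 0.46 (SE 0.33, adjusted p = 0.323). The 24-month call was lost without 1-month library 3, 12-month library 3 or 5 or any 24-month library, and the log2 fold change ranged from 0.72 to 1.41 over the libraries left out (adjusted p up to 0.200). It was also lost with library size alone (0.92, adjusted p = 0.0796) and without the filter on low counts (0.97, adjusted p = 0.185). Nor did it pass with only the libraries of both ages fitted (1.13, adjusted p = 0.111) or with entries of the same sequence summed (1.07, adjusted p = 0.0600).

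Its passenger strand chi-let-7a-3p stood at 84.2, 37.8 and 77.0 CPM at 1 month, at 96.02, 158 and 109 CPM at 12 months, and at 127.7, 384 and 266 CPM at 24 months. The 1-month values lay below all others, and 24-month libraries 3 and 5 were the highest of the 9. chi-let-7a-3p rose by 1.97 (log2, SE 0.49, adjusted p = 0.0164) at 24 months against 1 month, with 0.87 (SE 0.47, adjusted p = 0.196) at 12 months. The first call was lost without 24-month library 3 or 5 (adjusted p up to 0.104, log2 fold change down to 1.43).

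chi-let-7i-5p stepped down between 1 month and both later ages. This miRNA, encoded by a gene of its own, is known to restrain the innate receptor TLR4 in human cholangiocytes. Its levels were 5674, 6795 and 6614 CPM at 1 month, 2974, 2036 and 2945 CPM at 12 months, and 2473, 2134 and 3263 CPM at 24 months. Every 1-month library lay well above every older one, and 1-month library 2, which stood apart for so many miRNAs, lay beside the others of its age. It fell by 1.26 (log2, SE 0.32, adjusted p = 0.0200) at 12 months and by 1.28 (SE 0.32, adjusted p = 0.0164) at 24 months, lower in 3 of 3 goats each time, while 24 months against 12 months gave −0.02 (SE 0.31, adjusted p = 0.998). Without 1-month library 2 these were −1.24 and −1.25 (adjusted p = 0.00933 and 0.00697). The leukocyte list still took 3.73% and 5.78% of the counts in 1-month libraries 1 and 3, against 0.712% or less at later ages. Its part in the fall of chi-let-7i-5p was not tested. The 12-month call was lost without 12-month library 4 (adjusted p = 0.103) and the 24-month call without 24-month library 2 or 3 (adjusted p up to 0.0734), at log2 fold changes of −1.09 or lower in both comparisons over all libraries left out.

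The 3p strand of let-7i was not called in any comparison. chi-let-7i-3p stood at 52.8, 48.0 and 52.1 CPM at 1 month, 38.0, 40.8 and 55.2 CPM at 12 months, and 41.5, 50.7 and 39.1 CPM at 24 months, with log2 fold changes of −0.19 (SE 0.33, adjusted p = 0.686) at 12 months and −0.22 (SE 0.33, adjusted p = 0.663) at 24 months against 1 month. A difference between the strands, tested as their ratio below, did not pass after adjustment (adjusted exact p = 0.354).

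Of the strands of let-7d, the 3p strand was called and the 5p strand was not. chi-let-7d-5p stood at 1688, 2857 and 1589 CPM at 1 month, 997, 916 and 1095 CPM at 12 months, and 1081, 939 and 1688 CPM at 24 months. All 12-month libraries lay below all 1-month ones, and 24-month library 5 reached the 1-month range. The log2 fold changes were −1.03 (SE 0.36, adjusted p = 0.0626) at 12 months and −0.73 (SE 0.36, adjusted p = 0.149) at 24 months, and neither passed. The first passed with library size alone (−1.19, adjusted p = 0.0268), with DESeq2 (−1.14, adjusted p = 0.0274) and without any single 24-month library (adjusted p from 0.0260).

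Its 3p strand, chi-let-7d-3p, is the most abundant 3p strand relative to its 5p partner in the family. It stood at 216.5, 292 and 174 CPM at 1 month, 104, 153 and 134 CPM at 12 months, and 133.2, 51.5 and 66.9 CPM at 24 months, so that all libraries of both later ages lay below all 1-month libraries. It fell by 1.44 (log2, SE 0.43, adjusted p = 0.0329) at 24 months against 1 month, and gave −0.81 (SE 0.42, adjusted p = 0.180) at 12 months. The call was lost without 24-month library 3 or 5 (adjusted p up to 0.106), and the 12-month difference passed without 24-month library 2 (−1.13, adjusted p = 0.0480). With only the libraries of both ages fitted, the 24-month call was also lost (−1.52, adjusted p = 0.0505).

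The other 5p members did not pass in any comparison. chi-let-7f-5p, with 16381, 31912 and 15881 CPM at 1 month, 18768, 19382 and 22794 CPM at 12 months and 26303, 19287 and 27276 CPM at 24 months, was highest in 1-month library 2, where it exceeded chi-let-7a-5p. In chi-let-7g-5p, 24-month library 5 held 15432 CPM, against 4894 to 10769 CPM in all other libraries. chi-let-7c-5p ran from 1331 to 3769 CPM and chi-let-7e-5p from 337 to 895 CPM, each lowest in 1-month library 2. chi-miR-98-5p, from the X-linked member of the family, stood at 667, 607 and 575 CPM at 1 month, 502, 363 and 414 CPM at 12 months, and 450.6, 267 and 485 CPM at 24 months. All its older libraries lay below all 1-month ones, but its log2 fold changes, −0.53 (SE 0.34, adjusted p = 0.255) and −0.62 (SE 0.34, adjusted p = 0.183), did not pass. Within 1-month library 2, chi-let-7b-5p, chi-let-7c-5p and chi-let-7e-5p were thus at their lowest of the 9 libraries. chi-let-7f-5p, chi-let-7d-5p and chi-let-7i-5p were at their highest there.

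The rare 3p strands chi-let-7c-3p, chi-let-7e-3p, chi-let-7f-3p, chi-let-7g-3p and chi-miR-98-3p held 12 to 138 counts a library. Against 1 month, their log2 fold changes lay between −0.94 and 0.53 at 12 months, and between −0.54 and 0.68 at 24 months. None of the 5 passed in edgeR, and 0 of 5 had an unadjusted p under 0.05. Of all 937 entries, 374 had such a p at 12 months and 399 at 24 months against 1 month.

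Within the family, the 5p shares of let-7i, let-7d and miR-98 were lower at each later age. The share of each goat-named 5p member in the summed 5p counts needs no scaling between libraries, but the 9 shares add up to 100% and are not independent. chi-let-7i-5p made up 7.27, 8.75 and 9.90% of the 5p counts in the 1-month libraries, 3.71, 2.49 and 3.31% in the 12-month libraries and 2.33, 1.996 and 2.03% in the 24-month libraries. chi-let-7d-5p made up 2.16, 3.68 and 2.38%, then 1.24, 1.12 and 1.23%, then 1.02, 0.878 and 1.05%. chi-miR-98-5p made up 0.856, 0.782 and 0.861%, then 0.625, 0.443 and 0.464%, then 0.425, 0.249 and 0.302%. In all 3 members the ages did not overlap and were ordered 1, 12, 24 months from high to low. A share also moves with the other members of the sum. In CPM, 24 months against 12 months gave log2 fold changes of −0.02, 0.30 and −0.09 for these 3 members. chi-let-7a-5p, chi-let-7b-5p, chi-let-7f-5p and chi-let-7g-5p gave 0.75, 0.65, 0.26 and 0.70. None of these passed in edgeR (adjusted p = 0.998).

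Each of these 3 shares differed between the ages with an exact permutation p of 0.00357, the smallest that all assignments of 9 libraries to 3 ages can give (0.0107 after Benjamini-Hochberg adjustment over the 9 shares), and each passed without any single library (adjusted exact p from 0.0107 to 0.0321). The share of chi-let-7a-5p was 32.9 ± 6.69% at 1 month, 40.1 ± 1.67% at 12 months and 44.8 ± 4.75% at 24 months (SD, n = 3, exact p = 0.0214, adjusted 0.0450). That of chi-let-7b-5p was 11.1 ± 6.20%, 20.1 ± 0.998% and 21.8 ± 4.28% (exact p = 0.0250, adjusted 0.0450). Both were lost without 1-month library 2 (adjusted exact p = 0.123 and 0.116), where chi-let-7b-5p made up only 3.91%, and also without any single 12-month or 24-month library (adjusted exact p from 0.0964 to 0.186). The shares of chi-let-7f-5p, chi-let-7g-5p, chi-let-7c-5p and chi-let-7e-5p did not pass (adjusted exact p from 0.198 to 0.721). With 1-month library 2 left out that of chi-let-7c-5p passed at 0.0107, and with 24-month library 5 left out that of chi-let-7g-5p passed at 0.0321.

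**Figure D3:**
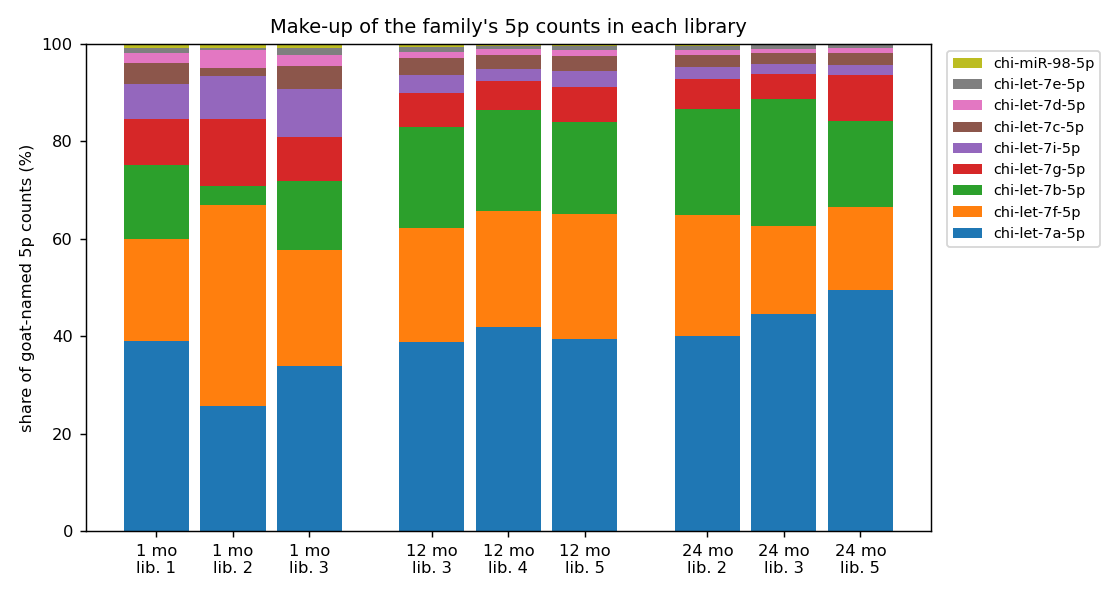
Share of each goat-named 5p member in the summed 5p counts (y axis, percent) of the 9 libraries (x axis, in age order). chi-let-7i-5p takes 7.27 to 9.90% of the 1-month bars and 1.996 to 3.71% of the others, and chi-let-7f-5p takes 41.1% of 1-month library 2.

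The 2 strands of a hairpin can differ in how their levels compare, and the ratio of 3p to 5p counts measures this within a library. let-7d had the highest ratio, with 12.8, 10.2 and 11.0 counts of its 3p strand per 100 of its 5p strand in the 1-month libraries, 10.4, 16.7 and 12.2 in the 12-month libraries, and 12.3, 5.48 and 3.96 in the 24-month libraries. All other letters lay below 3 per 100. In let-7i the ratio was 0.931, 0.706 and 0.788 per 100 in the 1-month libraries, 1.28, 2.01 and 1.87 in the 12-month ones, and 1.68, 2.38 and 1.199 in the 24-month ones, with no overlap between 1 month and either later age. In let-7b the 1-month libraries held 1.35, 1.78 and 1.45 per 100, the 12-month libraries 2.36, 2.92 and 2.99, and the 24-month libraries 2.36, 1.03 and 0.814. The 24-month libraries 3 and 5 lay below library 2 of their age in let-7b and in let-7d.

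None of the 9 letters passed for a difference between ages after adjustment over the 9. let-7i had an exact p of 0.0393 (adjusted 0.354) and let-7b of 0.0929 (adjusted 0.354), and the other adjusted values ran up to 0.768. Without 24-month library 2, let-7b passed (adjusted exact p = 0.0321).

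**Figure D4:**
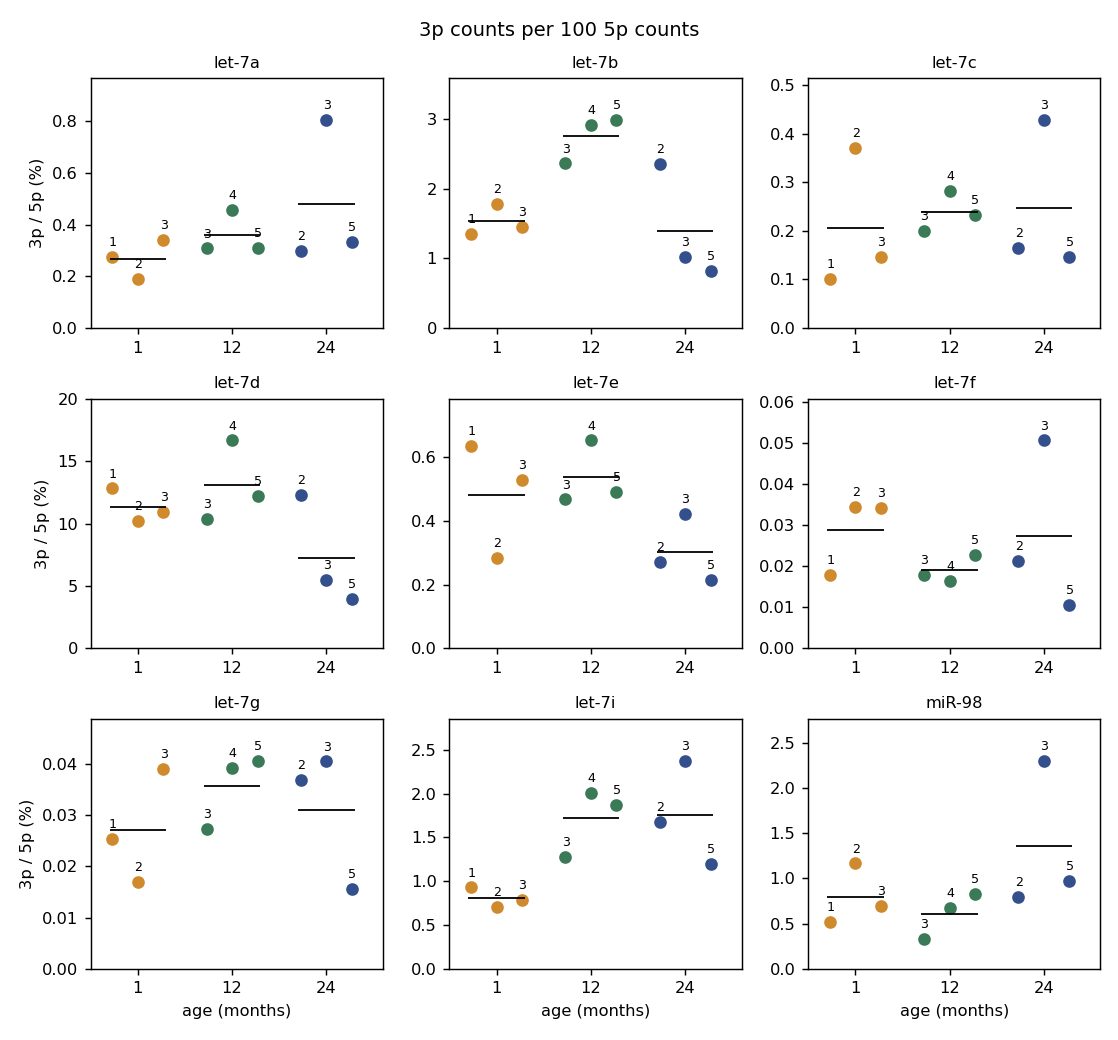
3p counts per 100 5p counts (y axis, from 0, a scale per panel) for the 9 letters at 1, 12 and 24 months (x axis). Each numbered point is a library and lines are means of 3. let-7i lies at 0.931 or less at 1 month and at 1.199 or more at both later ages, and let-7d reaches 16.7 in 12-month library 4.

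The 5 entries of other names were set against the goat entry they differ least from, with differences in capitals. They are shown because they are close relatives of abundant members, to which their reads could also belong.
let-7-x: tgaggtagtaggttgtgtggttTT
miR-98-x: tgaCgtagtaCgttgtatagtt
let-7-z: GgaggtagtTgtttgtacagtt
let-7-y: ctatacaGtctactgtctttcT
miR-98-y: GatacaacttactactttccT

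let-7-x begins with the whole of chi-let-7b-5p and runs on by 2 bases. miR-98-x, despite its name, lies nearest to chi-let-7a-5p, with the substitutions G4C and G11C, the first within the seed, and let-7-z lies nearest to chi-let-7g-5p with T1G and A10T. let-7-y has A8G and C22T against chi-let-7a-3p. miR-98-y starts 1 base into chi-miR-98-3p, with T2G and C22T counted along that goat entry.

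miR-98-x held 0.0487, 0.264 and 0.0573 counts per 100 of chi-let-7a-5p in 1-month libraries 1, 2 and 3. It held 0.0462, 0.257 and 0.0411 in 12-month libraries 3, 4 and 5, and 0.0396, 0.260 and 0.238 in 24-month libraries 2, 3 and 5. The ratio thus fell into 2 ranges with nothing between, and the higher range held 1 library at 1 month, 1 at 12 months and 2 at 24 months. In CPM, miR-98-x stood at 14.8, 52.9 and 12.99, then 14.4, 88.6 and 14.5, then 16.9, 123.9 and 190, and its log2 fold change of 2.03 at 24 months against 1 month did not pass (SE 0.97, adjusted p = 0.133).

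let-7-x held 8.90, 47.0 and 7.43 counts per 100 of chi-let-7b-5p in the 1-month libraries, 7.28, 12.0 and 6.30 in the 12-month and 5.48, 11.0 and 13.2 in the 24-month ones, and was highest within each age in the same libraries. Its level was 1060 ± 362, 1436 ± 530 and 2680 ± 1266 CPM at 1, 12 and 24 months (SD, n = 3), with a log2 fold change of 1.34 at 24 months against 1 month that did not pass (SE 0.47, adjusted p = 0.0521). It passed without 1-month library 2 or 24-month library 2 (adjusted p from 0.0363). With DESeq2 (1.29, adjusted p = 0.0350) and with upper quartile factors in edgeR (1.53, adjusted p = 0.0349) it passed as well.

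miR-98-y held 4, 46 and 9 counts, then 2, 13 and 2, then 0, 44 and 19, and let-7-z held 2, 46 and 4, then 0, 36 and 2, then 6, 15 and 21. A count of 0 allows up to 3 counts, or 2.8e-05% of 24-month library 2 and 3.6e-05% of 12-month library 3, for counting error only. Both were again highest in 1-month library 2, 12-month library 4 and 24-month libraries 3 and 5, which include the libraries in which chi-let-7a-3p was highest and chi-let-7d-3p lowest at 24 months. In the 24-month library outside that range, library 2, chi-let-7a-3p stood at 127.7 CPM, against 84.2 and 77.0 CPM in 1-month libraries 1 and 3, and chi-let-7d-3p at 133.2 CPM, against 216.5 and 174 CPM. The part of this library pattern in the calls of these strands was not tested.

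let-7-y, by contrast, held 757 to 2097 counts and 72.8 to 186 CPM, and its ratio to chi-let-7a-3p was near 100 per 100 (89.5 to 107) in 6 libraries. The exceptions were 1-month library 2, at 441, and 24-month libraries 3 and 5, at 48.5 and 49.6. Its log2 fold change was 0.42 (SE 0.40, adjusted p = 0.454) at 24 months against 1 month.

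**Figure D5:**
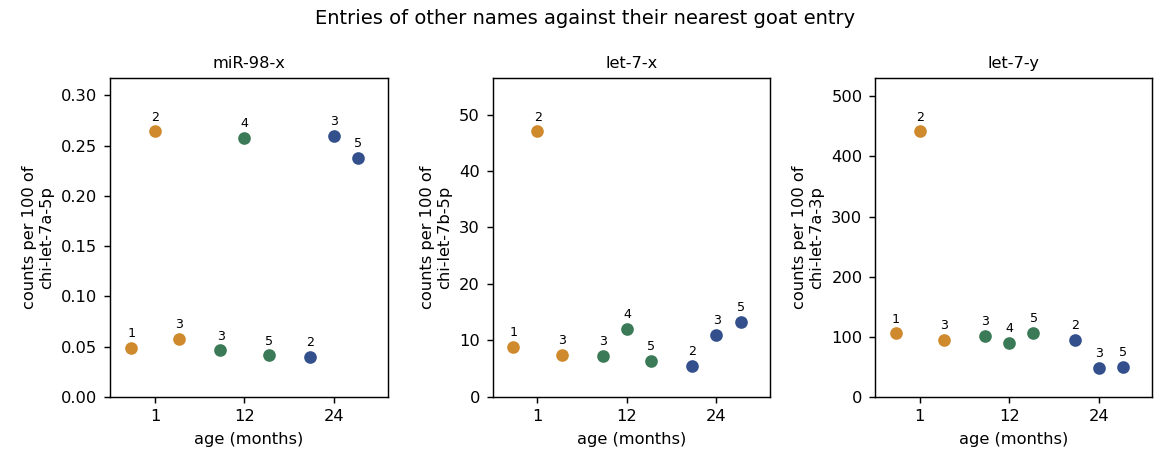
Counts of miR-98-x, let-7-x and let-7-y per 100 counts of the nearest goat entry (y axes, from 0) at 1, 12 and 24 months (x axis), with each library numbered. miR-98-x lies at 0.238 to 0.264 in 4 libraries of 3 ages and at 0.0396 to 0.0573 in the other 5.

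Outside the family, 7 entries carried the let-7 5p seed and 3 of them passed the filter: miR-5991-y, miR-8549-x and miR-2288-y, each with 303 counts or fewer over all libraries. miR-5991-y held 26, 5 and 14 counts in the 1-month libraries, 32, 39 and 38 in the 12-month libraries and 48, 46 and 55 in the 24-month libraries. miR-8549-x held 3, 4 and 4 counts in the 1-month libraries, 16, 30 and 4 in the 12-month libraries and 20, 37 and 46 in the 24-month libraries, and miR-2288-y held 2, 0 and 5, then 5, 5 and 11, then 15, 25 and 17. The filter asked for the minimum count of 10, scaled to library size, in at least as many libraries as 1 age holds. miR-5991-y held 5 counts in 1-month library 2, and no 1-month library of the other 2 entries reached 10. All 3 entries thus passed the filter only through later ages, where they were high. Their differences are given as counts with no test.

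In the goat RefSeq annotation (ARS1.2, used here for gene order only) 9 genes of the family are listed. MIRLET7A lies next to MIRLET7B, MIRLET7F next to MIRLET7D, MIRLET7C between MIR125B and MIR99A, and MIRLET7E next to MIR99B. MIRLET7G lies within WDR82 and MIR98 within HUWE1, while MIRLET7I has no other miRNA gene within 100 kb. Further copies of let-7a and let-7f genes are known in mammals and give the same mature strands. Of the neighbours, let-7a and let-7b rose on both strands at 24 months against 1 month. For let-7f and let-7d, which also share a locus, the log2 fold changes of the 5p strands were 0.18 (SE 0.35, adjusted p = 0.739) in chi-let-7f-5p and −0.73 (SE 0.36, adjusted p = 0.149) in chi-let-7d-5p. Those of the 3p strands were −0.09 (SE 0.59, adjusted p = 0.944) in chi-let-7f-3p and −1.44 in chi-let-7d-3p, and the difference between neighbours was not tested.

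The cluster partners miR-99, miR-100 and miR-125 come from precursors that let-7 shares in mammals, and miR-125, like let-7, is known to repress LIN28. Of 14 tested entries of these miRNAs, 0 passed in edgeR in any comparison of ages. Of all 937 entries, 19.2% passed at 12 months and 26.3% at 24 months against 1 month. An unadjusted p under 0.05 was reached by 1 of 14 at 12 months against 1 month (374 of all 937). None reached it in the other comparisons (399 of all 937 at 24 months against 1 month, and 40 at 24 months against 12 months). The ages did not overlap for 5 of 14 at 12 months and 2 of 14 at 24 months against 1 month, against 48.5% and 47.2% of all entries. Their median log2 fold change was 0.15 at 12 months and 0.13 at 24 months against 1 month, and that of all entries was −0.02 and −0.06. chi-miR-99a-5p, from the let-7c locus, stood at 31930 ± 10760, 44765 ± 6131 and 43658 ± 5435 CPM at 1, 12 and 24 months (SD, n = 3), and chi-miR-125b-5p at 30315 ± 3861, 38705 ± 4013 and 33116 ± 6253 CPM. miR-99-x, at 11310 ± 3633, 15663 ± 2127 and 15771 ± 3770 CPM, and chi-miR-125a-5p, at 6675 ± 3461, 12839 ± 3226 and 10249 ± 3586 CPM, were the next most abundant.

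Among the other named entries with at least 100 CPM, those most like a member across the 9 libraries were found by the root mean square difference of mean-centred log2 CPM. chi-let-7i-5p lay closest to chi-miR-140-3p (difference 0.18 log2 units, against a median of 0.95 over all candidates) and chi-miR-28-5p (0.22). chi-miR-140-3p, whose precursor is known from cartilage, stood at 786, 1350 and 976 CPM at 1 month, 481, 387 and 483 CPM at 12 months and 360, 330 and 455 CPM at 24 months. chi-let-7b-5p lay closest to miR-139-x (0.24, median 0.98) and chi-miR-30a-3p (0.29), both lowest in 1-month library 2, and chi-let-7f-5p to chi-miR-361-5p (0.23, median 0.77) and miR-185-x (0.24). chi-let-7a-5p lay closest to miR-2285-y (0.33) and chi-miR-500-3p (0.34). The nearest entries of the remaining members lay farther off, at 0.41 to 0.47: miR-148-y and miR-126-x for chi-let-7a-3p, chi-miR-365-3p and chi-miR-182 for chi-let-7b-3p, chi-miR-423-3p and chi-miR-378-3p for chi-let-7d-3p, and miR-652-y and chi-miR-3431-5p for chi-let-7g-5p.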

How the data were processed

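The authors deposited 1 table of raw read counts per mature miRNA entry for 9 libraries, with each entry's sequence and its length in bases, per the file headers. FastQC and Bowtie are named, per the submitters' processing notes, without versions or roles. RNA was taken with TRIzol, per the labels' protocols. The genome build, the miRNA database and the number of mismatches allowed were not given in the sources used here. All 9 libraries were fitted together on the whole table with edgeR 4.0.16 in R 4.3.3 (filterByExpr with minimum count 10 and minimum total 15, TMM, a robust quasi-likelihood fit with 6 degrees of freedom left). Adjusted p-values are Benjamini-Hochberg over the 937 entries of a comparison, at 0.05, and standard errors are the log2 fold change over the root of F. Exact permutation tests (F statistic of log2 values over all assignments, with no direction) were used for shares and for ratios with at least 10 counts in every library. The tests were checked on simulated data. DESeq2 1.42.0, limma 3.58.1, other scalings and filters, single omitted libraries and a replicate block were alternatives. Named were 8 members listed with earlier results in view (both strands of let-7a and let-7b, the 3p strand of let-7d and the 5p strands of let-7f, let-7g and let-7i), all other goat-named members, those of at least 100 CPM or past the threshold, the 2 entries most like each listed member and the 4 most abundant cluster partners; the remaining entries of other names, miR-98-x, miR-98-y and let-7-z, and entries outside the family with its seed were added after their values were seen. The members and lists were chosen with earlier results of these data known. P-values from edgeR set a difference between ages against the spread between animals of the same age, estimated over the 3 ages together. Those of the exact tests set it against all reassignments of the libraries to ages. Libraries differed by far more than sampling noise (lowest chi-square per degree of freedom of any pair 193), so none was merged.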

Additional observations from a re-analysis of the deposited data

How the results depend on the processing

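No call turned round under any alternative run. Of 1288 fold changes of members recomputed, 48 lost and 13 gained a call; signs of values not called in either setting also changed. With only the libraries of both ages fitted, 1 member was called at 12 months against 1 month and 2 at 24 months against 1 month, in place of 2 and 6, and with library size alone 3 at 24 months against 1 month. Leaving out single libraries gave 0 to 4 and 0 to 7 members in these comparisons, 0 at 24 against 12 months, and 1 to 5 in place of 4 for any difference. The lowest counts came without 12-month library 4 (0) and without 24-month library 3 (0) or 5 (1). The shares of all entries called in these runs are not given here, so these counts do not set the members apart from other entries. No calls are given for the 3 entries outside the family with its seed, since they passed the filter on low values only through later ages. Cluster partners stayed at 0 under every setting. With the Kruskal-Wallis statistic 3 in place of 5 shares passed (chi-let-7i-5p, chi-let-7d-5p and chi-miR-98-5p), and single omitted libraries gave 3 to 5 shares and 0 to 1 arm ratios. The causes of these shifts were not tested.

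The replicate numbers did not pair the libraries: each is another animal, and same-numbered libraries of different ages had deviations from their age means correlated at −0.21 to 0.18, with 1 of 7 libraries closest to its own number. A replicate block called 0, 0, 1 and 0 members at 12 against 1, 24 against 12, 24 against 1 month and for any difference (the 1 was chi-let-7b-5p). Of all 937 entries it called 4, 71 and 13 at 12 against 1, 24 against 1 month and for any difference.

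Low counts of miR-98-y and let-7-z, down to 0 in a library, and the 3 goats per age limit the precision.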
